A study of Mus musculus with 6 samples.

Results

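Chemokines are small secreted proteins that steer migrating cells, and their receptors are seven-helix membrane proteins on the cells that respond. The 10 genes described here are 6 chemokine ligands that act on leukocytes (Cxcl9, Cxcl10, Cxcl1, Ccl2, Ccl5 and Cx3cl1), the ligand Cxcl12, the signalling receptors Cxcr4 and Ccr2, and the scavenging receptor Ackr3. They were chosen by gene symbol, and all 10 were found among the 50559 genes of the deposited tables. They were read in the auditory cortex of C57 mice in 3 control libraries and 3 libraries in which Wnt3, a secreted signalling protein, was overexpressed. The genotype labels read WNT3 control and WNT3 Overexpressing. The labels used here do not state the age of the mice, the vector or promoter, or what the control mice received. Whether each replicate is its own animal is not labelled either, and p-values therefore cover just the spread between these libraries, which may be technical.

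In the brain, Cxcl12 is made by neurons, endothelium and meninges and guides cells through Cxcr4, while Ackr3 binds the same ligand and removes it. Cxcl9 and Cxcl10 are induced by interferons and attract activated T cells through Cxcr3. Ccl2 draws Ccr2-bearing monocytes out of the blood, Ccl5 acts on T cells and macrophages through receptors that include Ccr1, and Cxcl1 attracts neutrophils through Cxcr2. Cx3cl1, or fractalkine, is a membrane-bound ligand of neurons that signals to microglia through Cx3cr1.

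Total counts per library ranged from 42614588 to 71803617, and 22360 genes had enough counts to be tested. Wnt3, on chromosome 11, positions 103774150 to 103817957 (GRCm38, plus strand), had control levels of 2.70, 1.91 and 1.74 CPM, against 98.8, 7.45 and 8.71 CPM with overexpression (CPM is counts over TMM-scaled library size, times 1e+06, and values are in the order of libraries 1, 2 and 3 throughout). All overexpression libraries lay above all controls, and library 1 stood far above the other two. The extraction protocol names striatum, whereas the tissue label is auditory cortex. The 7 cortical excitatory neuron markers summed to 1112 to 1228 CPM in controls and 1152 to 1244 CPM in overexpression, and 7 striatal projection neuron markers to 227 to 371 and 256 to 297 CPM. The edgeR test called 0 genes (0%) at an adjusted p under 0.05 and 1040 (4.65%) at an unadjusted p under 0.05, and DESeq2 called 64 (0.286%) after adjustment. No chemokine difference below is thus a called one.

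Per unit of transcript length, Cx3cl1 was by far the most abundant of the 10 genes. It stood at 281 ± 55.5 TPM (transcripts per 1e+06 transcripts) in controls and 254 ± 75.1 TPM in overexpression (SD, n = 3). Cxcl12 was second, at 22.1 ± 5.44 and 34.2 ± 2.71 TPM (SD, n = 3), and Ackr3 followed, at 5.97 ± 1.22 and 6.47 ± 1.28 TPM (SD, n = 3). In controls, the library range of each of these 3 genes lay above that of the next gene in the order. With overexpression this held for Cx3cl1 and Cxcl12, but Ackr3 overlapped Ccl5, which reached 6.51 TPM in library 1, where Ackr3 stood at 5.04 TPM. The other 7 genes had control means from 1.35 TPM (Cxcl10) down to 0.020 TPM (Cxcl9), and each overlapped its neighbour in the order of control means. Cxcl9 was the last in controls and 9th in overexpression.

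**Figure D1:**
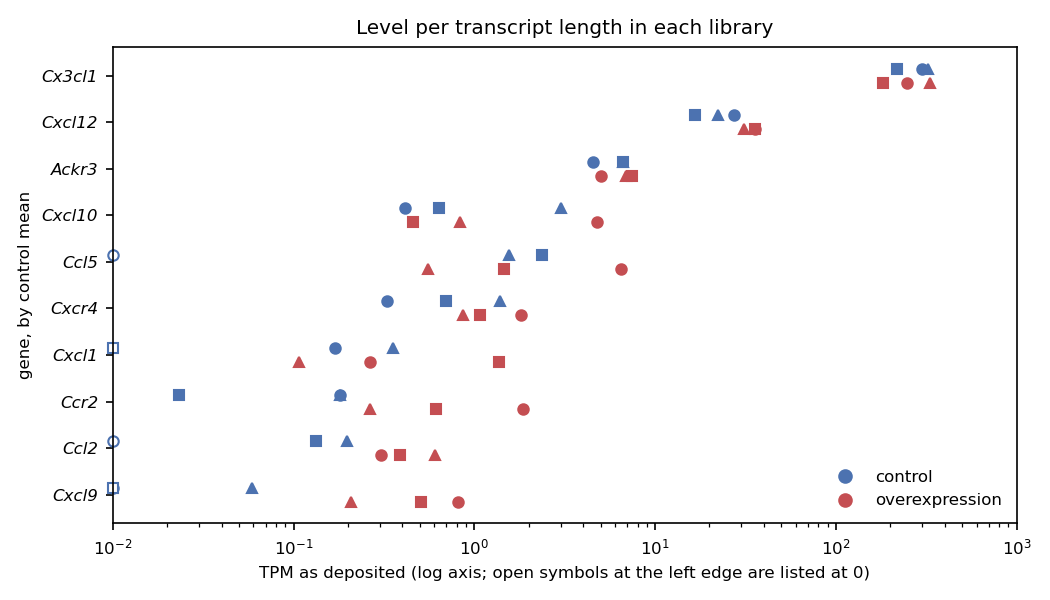
Deposited TPM of the 10 genes in each library on a log axis, ordered by control mean, with circles, squares and triangles for libraries 1, 2 and 3 of each group and open symbols for values listed at 0. Cx3cl1 and Cxcl12 stand above the other genes in both groups, and Ackr3 above the remaining 7 in controls only, since Ccl5 in overexpression library 1 (6.51 TPM) lies within its range.

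Cxcl12 was higher with overexpression, and all 3 libraries exceeded each control. It maps to chromosome 6, positions 117168535 to 117181367 (plus strand). Its level was 42.2, 33.0 and 33.2 CPM in the controls, and 51.7, 66.3 and 50.5 CPM with overexpression. Library 2 was the highest. The means were 36.1 ± 5.28 and 56.2 ± 8.81 CPM (SD, n = 3), and the deposited TPM values were also apart, at 16.6 to 27.4 in controls and 31.1 to 35.9 in overexpression (14.0% of tested genes were apart in TPM and 11.9% in CPM, in either direction). The log2 fold change was 0.64 ± 0.19 (SE; 95% interval 0.20 to 1.07). Its unadjusted p was 0.0097 by edgeR, and its adjusted p over all genes was 0.822. It ran from 0.50 without overexpression library 2 to 0.77 without control 1. In bulk tissue, more cells of a type and more RNA per cell cannot be told apart.

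Summed markers of blood vessel cells were higher in the same libraries as Cxcl12. The 10 endothelial markers summed to 265 to 320 CPM in controls and 328 to 436 CPM in overexpression, with library 2 the highest, and none was at 0. Much of the rise of that sum was Flt1, at 47.2 to 59.2 and 83.7 to 123 CPM. Of these 10 markers, 6 were higher and 4 lower, and 2 had an unadjusted edgeR p under 0.05, a rule that 4.65% of all tested genes met. The 6 pericyte markers summed to 190 to 218 and 226 to 266 CPM, again without overlap. Rgs5 was the largest part of that sum, at 92.1 to 133 and 131 to 159 CPM. Of the 6, 5 were higher and 1 lower, and 0 had an unadjusted edgeR p under 0.05. The part of these markers in the Cxcl12 values was not tested. Among 13685 named genes with a mean of at least 1 CPM, the profiles nearest to that of Cxcl12 over the 6 libraries were those of Jak3, a kinase of cytokine receptors, and Sox17, a transcription factor of arterial endothelium. Their root mean square differences from Cxcl12 were 0.076 and 0.094 on the log2 CPM scale.

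Neither receptor of Cxcl12 separated the groups. Cxcr4, the signalling receptor, on chromosome 1, positions 128588199 to 128592293 (minus strand), was at 0.35, 1.03 and 1.15 CPM in controls and 1.32, 0.80 and 0.69 CPM in overexpression. Its highest and lowest libraries were overexpression 1 and control 1, and the other 4 lay between them. Its log2 fold change was 0.14 ± 0.52 (SE; 95% interval -1.05 to 1.34), and -0.21 without control 1 and -0.18 without overexpression library 1. Ackr3, the scavenger, on chromosome 1, positions 90203980 to 90216751 (plus strand), was at 3.87, 8.22 and 5.74 CPM in controls and 4.01, 6.22 and 5.87 CPM in overexpression. All 3 overexpression values lay inside the control range. Its log2 fold change of -0.15 ± 0.33 (SE; 95% interval -0.91 to 0.61) took the other sign with TPM values, with the length trend removed, and without control 2 or overexpression library 1. Over all tested genes the TPM scale itself moved the median log2 fold change from -0.01 to 0.14 with a pseudocount of 1 and to 0.22 with 0.1.

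**Figure D2:**
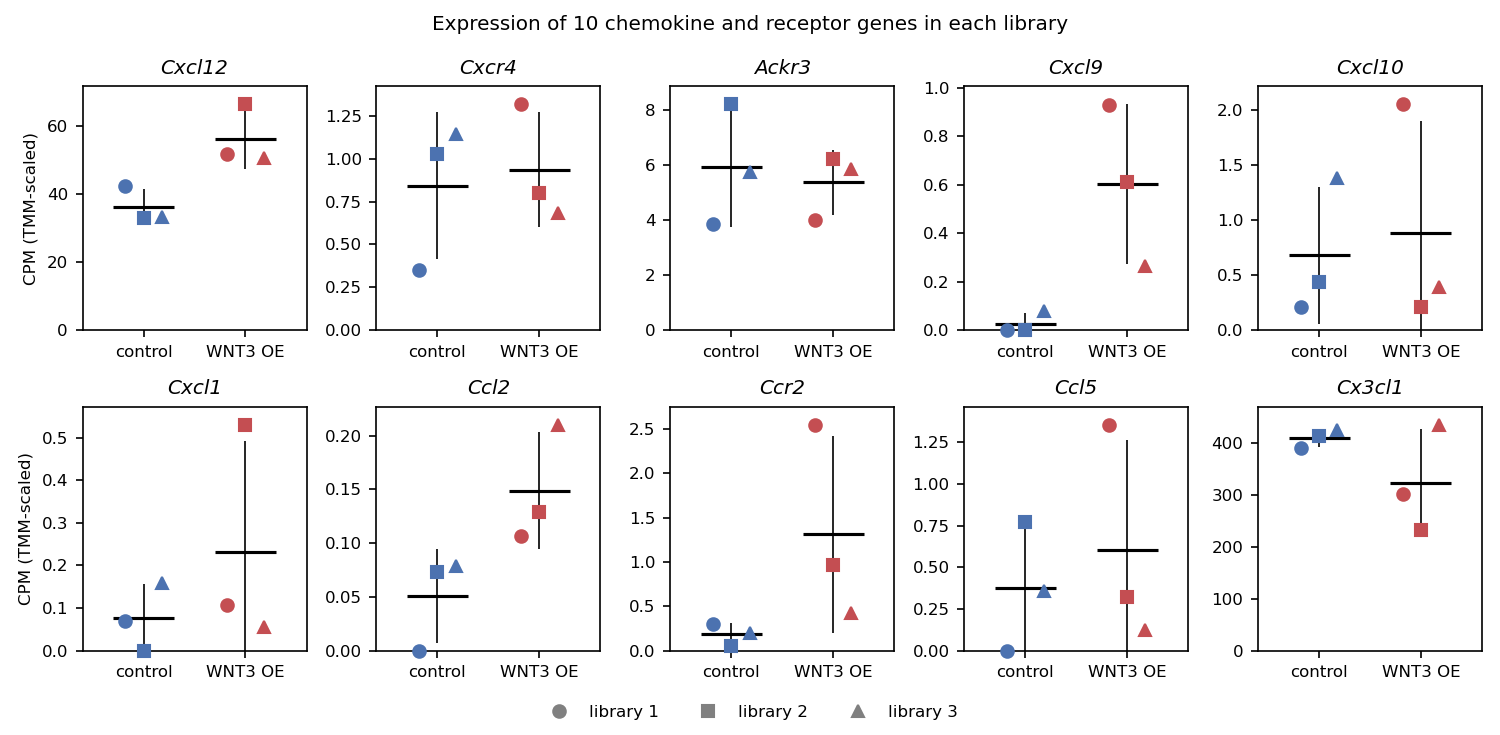
CPM of the 10 genes in each library, 1 panel per gene with its own linear axis from 0; circles, squares and triangles are libraries 1, 2 and 3 of each group, the horizontal bar is the mean and the vertical line the SD, cut at 0. Cxcl12, Cxcl9, Ccr2 and Ccl2 have no overlap between groups, and the other 6 genes overlap.

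Cxcl9 and Cxcl10 are neighbours, 18.6 kb apart on the minus strand of chromosome 5, and both signal through Cxcr3. Their promoters are shown because the genes share a cluster, a receptor and a known inducer but had different profiles, and that of Cxcl12 because it was the most abundant of the genes with no overlap. Each stretch runs from 250 bases before to 50 bases after the RefSeq transcription start in GRCm38.p6 and is printed along the strand of its gene. Cxcl9 is at chr5:92328030-92328329 (minus strand), Cxcl10 at chr5:92348840-92349139 (minus strand) and Cxcl12 at chr6:117168285-117168584 (plus strand). Capitals mark matches to the motifs searched.
Cxcl9: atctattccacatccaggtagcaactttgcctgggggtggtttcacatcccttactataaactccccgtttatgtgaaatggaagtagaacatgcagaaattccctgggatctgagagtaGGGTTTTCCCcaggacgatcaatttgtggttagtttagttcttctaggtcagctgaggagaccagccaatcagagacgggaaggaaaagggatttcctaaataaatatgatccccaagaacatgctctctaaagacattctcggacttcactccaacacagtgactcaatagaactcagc
Cxcl10: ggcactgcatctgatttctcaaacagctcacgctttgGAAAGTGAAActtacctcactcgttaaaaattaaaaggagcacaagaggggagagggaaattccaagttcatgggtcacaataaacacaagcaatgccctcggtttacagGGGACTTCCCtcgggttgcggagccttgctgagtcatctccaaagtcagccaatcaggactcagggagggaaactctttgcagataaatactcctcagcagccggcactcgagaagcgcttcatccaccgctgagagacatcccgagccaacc
Cxcl12: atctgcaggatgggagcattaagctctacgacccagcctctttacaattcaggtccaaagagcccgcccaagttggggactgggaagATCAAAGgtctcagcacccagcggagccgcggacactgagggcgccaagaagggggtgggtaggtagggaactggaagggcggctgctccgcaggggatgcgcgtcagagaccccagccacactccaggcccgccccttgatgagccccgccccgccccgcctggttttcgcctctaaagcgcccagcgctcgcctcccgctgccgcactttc

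The motifs were searched on both strands in the 8 promoters of the 10 genes that the RefSeq table holds (Ccl2 and Ccl5 are missing). The interferon-stimulated response element core (GAAA, any 2 bases, GAAA) was found in Cxcl10 alone of these 8, with its first base at -213 from the start site, and is in 3.44% of the 32851 promoters of the table. An NF-kB pattern (GGG, any 2 bases, TT, any base, CC) was found in Cxcl9 at -130, in Cxcl10 at -103 and in Cxcl1 at -89 (on the other strand) and -71, and is in 4.79% of all promoters. The TCF/LEF pattern CTTTGAT was found in Cxcl12 at -163, on the other strand, where the printed letters read ATCAAAG, and is in 3.73% of all promoters. Another TCF/LEF pattern, CTTTGAA (5.14%), was in none of the 8, and no matches overlapped. A match describes the letters only.

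Cxcl9 had few or no counts in the controls and was present in all overexpression libraries, at a low level. It lies on chromosome 5, positions 92321347 to 92328079. Its counts were 0, 0 and 4 in the controls against 52, 38 and 19 with overexpression, which is 0, 0 and 0.079 CPM against 0.93, 0.61 and 0.27 CPM. A count of 0 allows up to 0.0704 CPM in control 1 and 0.0550 CPM in control 2 (3 counts per library; counting error only). The groups did not overlap, and library 1 was the highest. The log2 fold change was 4.37 ± 1.10 (SE; 95% interval 1.84 to 6.90). The unadjusted p was 0.00397 by edgeR and the adjusted p 0.822, against an adjusted p of 0.0568 by DESeq2. Cxcl9 reached the test only through its overexpression counts. The nearest profiles were those of Lilrb4a, an inhibitory receptor of myeloid cells, and Osmr, the oncostatin M receptor and one of the reactive astrocyte markers used below, at root mean square differences of 0.67 and 0.87 (log2 CPM).

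Cxcl10 did not follow its neighbour. It lies on chromosome 5, positions 92346638 to 92348889, and was at 0.21, 0.44 and 1.38 CPM in controls and 2.05, 0.21 and 0.39 CPM in overexpression. Overexpression library 1 was the highest of the 6 and library 2 the lowest, so the groups overlapped. A log2 fold change of 0.37 ± 0.94 (SE; 95% interval -1.79 to 2.52) became -1.16 without overexpression library 1. It was also below 0 without control 1 (-0.05) and with a replicate block (-0.091). Exons of Art3, on the opposite strand, overlap 133 bases of Cxcl10 exons, and Art3 held 156 to 295 counts per library; with the strand setting unknown, its reads and those of Cxcl10 may be mixed.

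No control held a count of the receptor Cxcr3, and the overexpression libraries held 33, 0 and 5. It was too low to be tested. Over the group its level was at least 9.86-fold higher, against a floor of 3 counts over the controls (counting error only), and 1 library held most of its counts. Cxcl11, the remaining Cxcr3 ligand, had 8 counts in control 2, 3 in overexpression library 1 and none in the other libraries. Of the interferon machinery, Ifng had no count in any library. Irf1, a transcription factor that interferons induce, was at 5.65, 6.40 and 4.85 CPM in controls and 8.26, 6.36 and 5.88 CPM in overexpression, with overlap (log2 fold change 0.28 ± 0.25, SE). The 13 interferon-stimulated genes summed to 49.5 to 60.3 CPM in controls and to 161, 51.3 and 51.3 CPM in overexpression. All 13 had counts and a log2 fold change above 0, and the sum was above the controls in library 1 alone. Cxcl9 was above the controls in all 3 libraries. The part of interferon in the Cxcl9 values was not tested. The 10 T cell markers summed to 2.84 to 7.06 CPM in controls and 4.23 to 7.12 CPM in overexpression, with Trbc1 at 0 throughout. Most of that sum was Cd4, Trbc2 and Lck, whereas the markers Cd3g and Cd8a were at 0.999 and 1.77 CPM in overexpression library 1, which also held most Cxcr3 counts, and at most 0.079 and 0.14 CPM in controls. Cd3d and Cd3e stood at 0.54 and 0.48 CPM in that library, and at most 0.13 and 0.12 CPM in controls. In overexpression libraries 2 and 3, Cd3d, Cd3e, Cd3g and Cd8a ranged from 0 (Cd3g) to 0.25 CPM (Cd3e). The part of T cells in the Cxcl9, Cxcr3 and Ccl5 values was not tested.

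Ccr2, the receptor of inflammatory monocytes, had the other large separation. It lies on chromosome 9, positions 124101950 to 124113557 (plus strand). It was at 0.31, 0.055 and 0.20 CPM in controls and 2.55, 0.96 and 0.42 CPM in overexpression, from 13, 3 and 10 and from 143, 60 and 30 counts. Every overexpression library lay above every control, with library 1 the highest and library 3 nearest the controls. Its log2 fold change was 2.83 ± 0.82 (SE; 95% interval 0.94 to 4.71) and 1.90 without overexpression library 1. The unadjusted p was 0.00852 by edgeR, and the adjusted p was 0.822 by edgeR and 0.123 by DESeq2. The nearest profiles were again that of Lilrb4a (0.52) and that of Nlrc5 (0.58, root mean square difference in log2 CPM), a transcriptional activator of MHC class I genes.

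Ccl2, the main ligand of Ccr2, was at the edge of detection. Located on chromosome 11, positions 82035571 to 82037453 (plus strand), it had 0, 4 and 4 counts in controls and 6, 8 and 15 in overexpression, or 0, 0.073 and 0.079 against 0.11, 0.13 and 0.21 CPM. The groups did not overlap, but the gene was too low for the test; with no filter on low counts its log2 fold change was 1.50 and its unadjusted edgeR p 0.231. Ccl7, another ligand of Ccr2, had no control count and 7, 4 and 8 counts in overexpression, and was not tested. Against a floor of 3 counts over the controls it was at least 4.93-fold higher over the group (counting error only). The 6 monocyte markers, none of them at 0, summed to 16.1 to 41.1 CPM in controls and 36.9 to 39.5 CPM in overexpression. Most of that sum was Vcan, which other cells also express (12.7 to 37.4 and 28.6 to 34.9 CPM). Chil3, a gene of monocytes and neutrophils, was at 0, 0.11 and 0 CPM in controls and 1.23, 1.03 and 0.14 CPM in overexpression, and Ly6c2 at 0.92 to 1.56 and 1.54 to 3.21 CPM. The part of monocyte content in the Ccr2 values was not tested.

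Ccl5 varied more within the groups than between them. The gene, on chromosome 11, positions 83525778 to 83530518 (minus strand), was at 0, 0.77 and 0.36 CPM in controls and 1.36, 0.32 and 0.13 CPM in overexpression. Overexpression library 1 was the highest, and libraries 2 and 3 lay below controls 2 and 3. Its log2 fold change was 0.64 ± 1.18 (SE; 95% interval -2.06 to 3.34) and -0.76 without overexpression library 1. Ccr1, a receptor of Ccl5, overlapped too, at 0.19 to 0.53 and 0.11 to 0.93 CPM.

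The neutrophil attractant Cxcl1 was detected at a few counts and in 1 library at more. On chromosome 5, positions 90891241 to 90893115 (plus strand), it had 3, 0 and 8 counts in controls and 6, 33 and 4 in overexpression, where library 2 reached 0.53 CPM and libraries 1 and 3 stood at 0.11 and 0.056 CPM. The groups overlapped, and the gene was too low to be tested (log2 fold change 1.58 and unadjusted edgeR p 0.251 with no filter). Its receptor Cxcr2 had 0, 0 and 5 counts in controls and 32, 55 and 7 in overexpression, also highest in library 2. It too was left out by the filter; with no filter its unadjusted edgeR p was 0.0149. The 12 neutrophil markers, of which none was at 0 throughout, summed to 6.33 to 9.55 CPM in controls and to 32.2, 52.1 and 14.6 CPM in overexpression, in the same order as Cxcr2. The part of neutrophil content in the Cxcr2 values was not tested.

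Cx3cl1, the abundant neuronal ligand, was lower in CPM in 2 of the 3 overexpression libraries. On chromosome 8, positions 94772009 to 94782427 (plus strand), it was at 391, 415 and 427 CPM in controls and 302, 233 and 436 CPM in overexpression. In CPM the controls lay close together, overexpression libraries 1 and 2 below all of them and library 3 above all of them. In TPM the controls lay further apart, at 300, 218 and 324, against 247, 183 and 332 in overexpression. On that scale overexpression library 1 lay within the control range. A log2 fold change of -0.34 ± 0.23 (SE; 95% interval -0.88 to 0.19) had an unadjusted edgeR p of 0.177 and an adjusted p of 0.822, and it ran from -0.63 without overexpression library 3 to -0.15 without library 2. The 6 general neuron markers summed to 4503 to 5264 CPM in controls and 4949 to 5539 CPM in overexpression. Adam10 and Adam17, the proteases that release Cx3cl1 from the membrane, overlapped between groups, with log2 fold changes of 0.25 ± 0.19 and 0.14 ± 0.21 (SE).

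Cx3cr1, the fractalkine receptor of microglia, was at 50.6, 76.1 and 52.5 CPM in controls and 69.8, 36.4 and 54.4 CPM in overexpression. The highest and the lowest of the overexpression libraries were 1 and 2. Library 2 lay below every control, and libraries 1 and 3 lay within the control range. The log2 fold change of Cx3cr1 was -0.16 ± 0.27 (SE), and its sign turned with TPM values and without control 2 or overexpression library 2. The 10 microglia markers, all with counts, were lowest in the same library, at 308 to 407 CPM in controls and 394, 247 and 312 CPM in overexpression.

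Across the family, the 10 genes can be read against 52 other chemokine ligands and receptors. Of the 10, 8 were tested, 0 passed an adjusted p of 0.05 by edgeR, DESeq2 or limma voom, and 3 (Cxcl12, Cxcl9 and Ccr2, all higher) had an unadjusted edgeR p under 0.05, where 1.86% of all tested genes were higher at that p. Cxcl12 was at 0.0504 without overexpression library 2 and Ccr2 at 0.0517 without library 1. Groups were apart for the same 3 of the 8, against 5.89% of tested genes that were higher without overlap. The 8 are those with enough counts in some libraries, and Cxcl9 would not be among them at its control level. Ccr2 had 13, 3 and 10 counts in controls, so it too passed the filter with the help of the overexpression libraries. Such entry favours genes that are higher with overexpression, so nothing is read from the 3 of 8. Of the 52 others, 7 had no count in any library and 27 were tested, 17 ligands and 10 receptors. By edgeR 0 of these passed, as by DESeq2 and limma voom, and 3 had an unadjusted p under 0.05, 2 higher (1.86% of all genes) and 1 lower (2.80%). Among the 17 ligands, 3 were lower without overlap (Ccl9, Ccl22 and Cxcl14), against 6.04% of all tested genes. The median log2 fold change was 0.50 over the 8 genes, -0.09 over the 17 ligands, 0.68 over the 10 receptors and -0.01 over all tested genes. Over the 8 it was -0.07 without overexpression library 1 and 0.02 without control 1. Genes that passed the filter through their overexpression counts are among the 8 and the 10 receptors, so no shift is read from these medians. With a mean of at least 1 CPM required, which drops the genes of low level, only Cxcl12, Ackr3 and Cx3cl1 of the 10 were left. Their median was -0.16, the value of Ackr3. Those left of the 52 had a median of -0.17.

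Among the other receptors, 9 of 10 tested had a log2 fold change above 0, as had 11032 of all 22360 tested genes. Ccr9, Ccr10 and Cxcr6 reached 10 counts in 1 control each and passed the filter on low counts through the overexpression libraries, which favours a positive sign, so nothing is read from this count. The smallest unadjusted p belonged to the scavengers Ackr1 and Ackr2 and then to Cxcr6, a T cell receptor of Cxcl16. Ackr1, which holds chemokines on venous endothelium and red cells, had control levels of 0.21, 1.03 and 1.27 CPM, against 10.4, 13.5 and 0.34 CPM with overexpression. Libraries 1 and 2 lay far above the controls and library 3 within them (log2 fold change 3.26 ± 1.13, SE; unadjusted edgeR p 0.0198). That p was 0.223 by limma voom, 0.118 with a replicate block, 0.0662 with log2(TPM + 1) by limma and 0.0641 without overexpression library 2. Summed haemoglobin genes, a measure of red cells, were at 118, 717 and 245 CPM in controls and 469, 358 and 182 CPM in overexpression, with overlap. The part of red cells or venous endothelium in the Ackr1 values was not tested. Ackr2, a scavenger of inflammatory CC chemokines, was at 2.67, 1.89 and 2.29 CPM in controls and 5.80, 6.91 and 2.51 CPM in overexpression, again with library 3 at the control level (log2 fold change 1.15 ± 0.40, SE; unadjusted edgeR p 0.0204). Cxcr6 was at 0, 0.073 and 0.41 CPM in controls and 1.37, 0.11 and 0.41 CPM in overexpression, with overlap.

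The other ligands with the smallest unadjusted p were all lower in the mean. Ccl9, a ligand of Ccr1, was at 2.91, 2.49 and 2.45 CPM in controls and 1.82, 1.14 and 1.41 CPM in overexpression. Its groups did not overlap (log2 fold change -0.84 ± 0.31, SE; unadjusted edgeR p 0.0256), although they did in TPM. Ccl22, a ligand of Ccr4, was at 0.28, 0.37 and 0.22 CPM against 0.11, 0 and 0.098 CPM, also without overlap (unadjusted edgeR p 0.0587). Ccl21a, a lymphoid ligand of Ccr7, was at 1.53, 3.74 and 1.11 CPM against 1.02, 0.88 and 1.26 CPM, with control 2 well above the other libraries; it shares reads with near-identical copies where the counting allows it. Of 11 genes for inducers of chemokines and proteases that cut them, 8 were tested and none had an unadjusted edgeR p under 0.05, where 4.65% of all tested genes did; with so few genes nothing is read from this count.

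**Figure D3:**
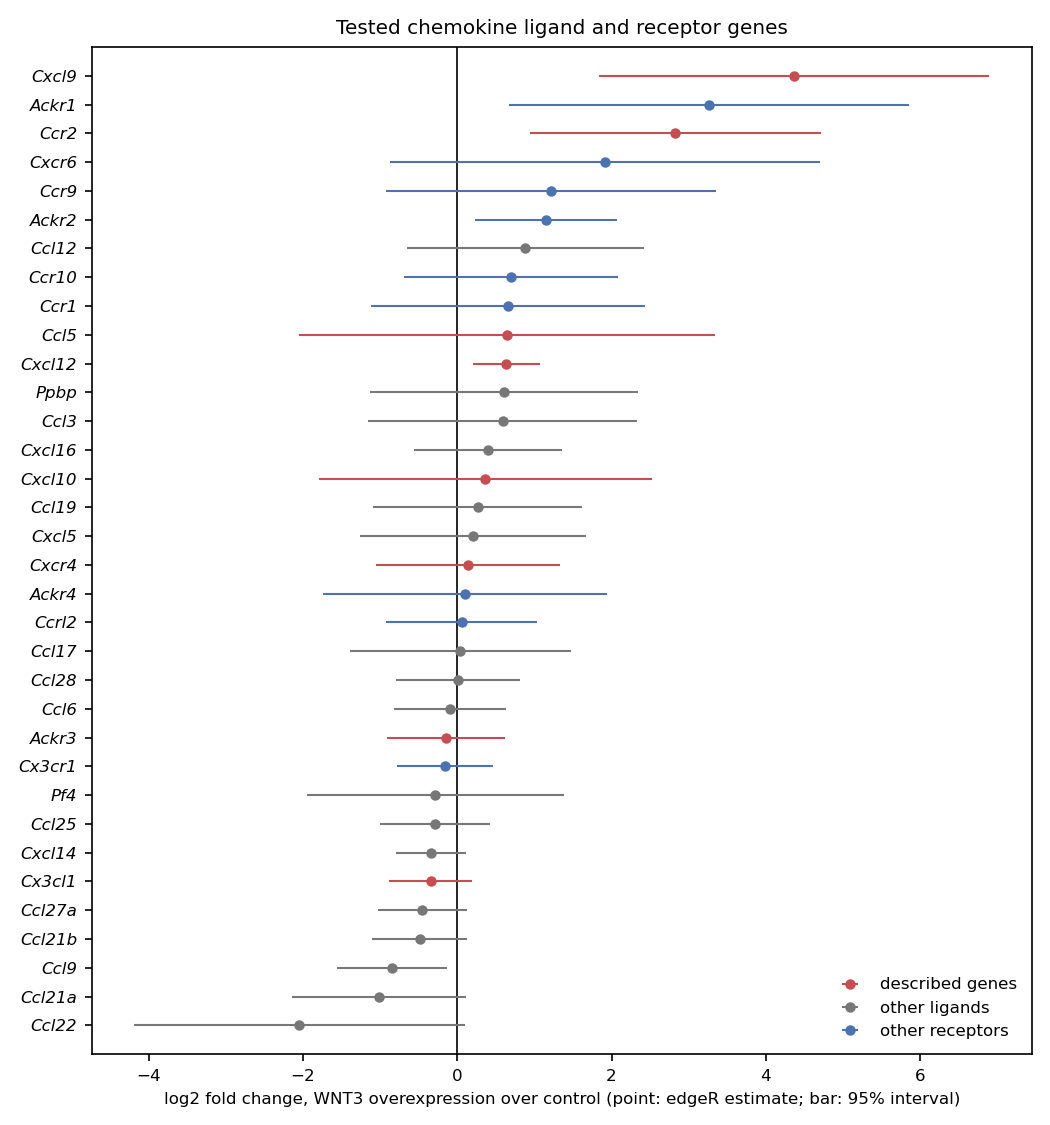
Fitted log2 fold change of overexpression over control (point) with its 95% interval (bar) for tested chemokine genes, in order of size; red marks the 8 tested genes of the 10, grey other ligands and blue other receptors. The intervals of Cxcl9, Ackr1, Ccr2, Ackr2 and Cxcl12 lie above 0 and that of Ccl9 below it, before any adjustment for the number of genes tested.

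The 3 overexpression libraries had different chemokine profiles. Library 1, with the highest Wnt3, held the highest level of the group for 5 of the 10 genes (Cxcr4, Cxcl9, Cxcl10, Ccr2 and Ccl5) and for the interferon-stimulated list. It also lay above all controls for the summed markers of B and plasma cells (75.1 CPM, controls up to 31.9), meningeal fibroblasts (90.9, controls up to 67.6), perivascular macrophages (9.83, controls up to 6.61) and choroid plexus (7.38, controls up to 4.45). The meningeal sum was 45.6 and 28.4 CPM in libraries 2 and 3 and the macrophage sum 5.40 and 3.47 CPM, so both had the order of Ccr2 and Cxcl9 across the overexpression libraries, and both overlapped the controls. The part of these cells in the chemokine values was not tested. Library 2 was highest for 3 (Cxcl12, Ackr3 and Cxcl1) and for Ackr1, Cxcr2 and the neutrophil and endothelial sums. Library 3 was highest for 2 (Ccl2 and Cx3cl1), its Ackr1, Ackr2 and Cxcl1 lay within the control range, and its Ccr1 (0.11 CPM) lay below every control. The 8 reactive astrocyte markers, none at 0, summed to 105 to 175 CPM in controls and 335, 254 and 262 CPM in overexpression. This sum was above the controls in all 3 libraries, as Cxcl12, Cxcl9 and Ccr2 were. Gfap was the largest part of it, at 77.5, 126 and 139 CPM in controls and 252, 122 and 198 CPM in overexpression, with overlap. Lcn2 was at 7.47, 37.1 and 1.88 CPM in overexpression and at most 0.39 CPM in controls. General astrocyte markers summed to 1796 to 2040 and 1841 to 1882 CPM. The part of reactive glia in the chemokine values was not tested.

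**Figure D4:**
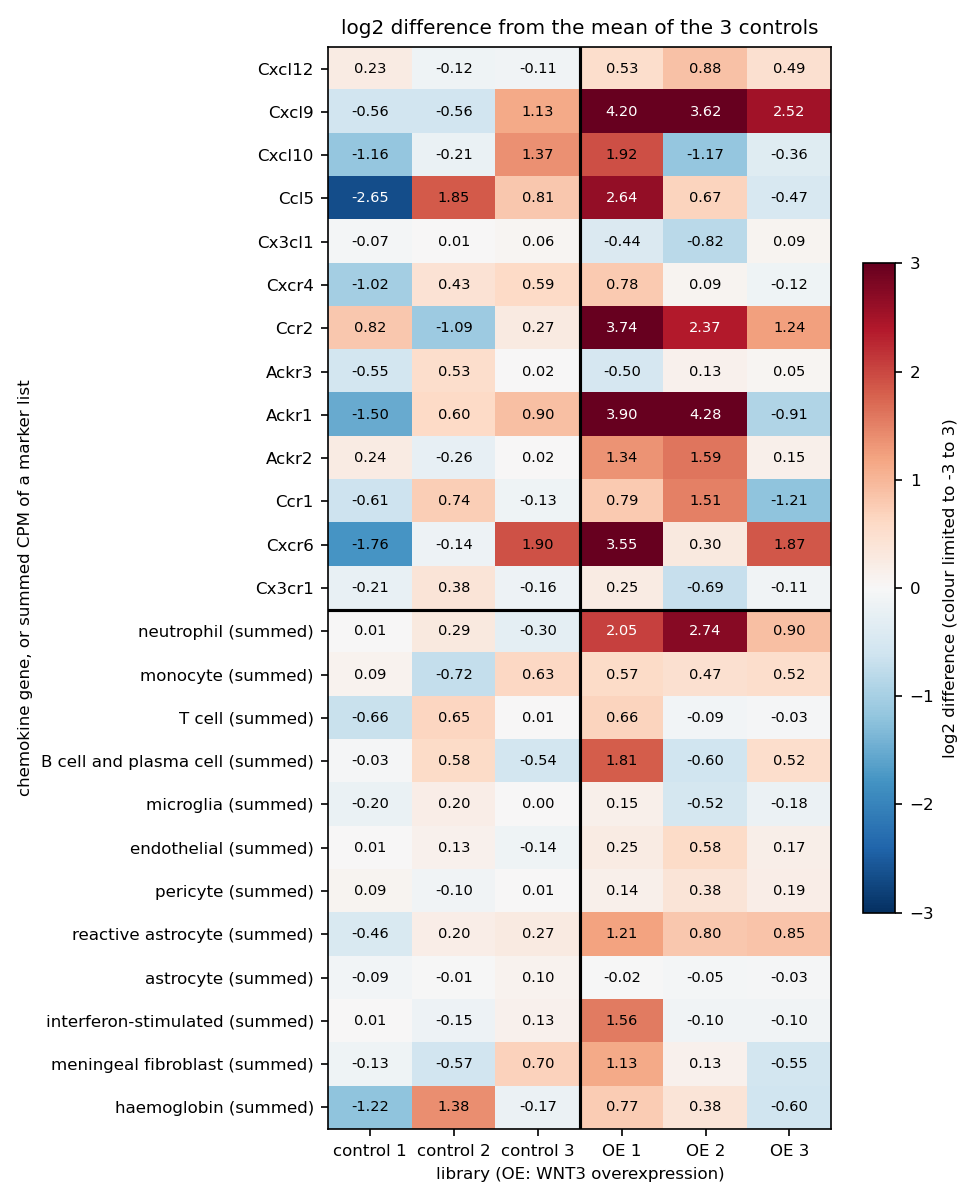
log2 difference of each library from the mean of the 3 controls for chemokine ligands and receptors (log2 CPM, prior count 2) and for the summed CPM of 12 marker lists; red is above and blue below the controls. Cxcl9 (4.20, 3.62 and 2.52) and Ccr2 (3.74, 2.37 and 1.24) are above the controls in all overexpression libraries. The interferon-stimulated sum is high in library 1 (1.56) and near 0 in libraries 2 and 3.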

How the data were processed

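RNA sequencing libraries of mouse brain, 3 control and 3 WNT3 overexpression, were grouped by their titles, and table columns were matched through the library names. Per the labels' protocols, the TruSeq libraries kept strand. FastQC 0.11.5, Cuffnorm, STAR 2.5.3a, DESeq 1.16.1 and mm10 are named, without roles, per the submitters' processing notes; no source used here names the counting program, annotation or strand setting. The deposited table of counts holds whole numbers per gene, not normalized, and the deposited TPM table the authors' TPM for the same genes. In every library more genes hold a count of 4 than of 2, so a low count may not be a number of fragments.

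Counts were tested with the edgeR 4.0.16 quasi-likelihood test (R 4.3.3) on all 22360 genes kept by filterByExpr (minimum count 10), with TMM, 1 term for group (4 residual degrees of freedom) and a Benjamini-Hochberg threshold of 0.05. Standard errors are the fold change over the square root of F. An exact permutation test of 3 against 3 cannot go below 0.1 and was not used. Alternatives were DESeq2 1.42.0, limma 3.58.1 (voom, and log2(TPM + 1) or log2(TPM + 0.1)), other scalings and filters, a replicate block, an adjusted p of 0.1 and the omission of each library; removal of a length trend (lowess, span 0.3) was chosen after seeing the data. The tests were tried on simulated data. Results for some genes are not reported here. Members and lists were chosen with earlier results of these data known. Named genes were Wnt3, the 10 genes, their binding partners, inducers and proteases. They also included the 3 other ligands and 3 other receptors with the smallest p. For each of the 10 with an unadjusted p under 0.05, the 2 nearest profiles were named. Ccl7, Cxcl14, Ccr9, Ccr10, Cd3d, Cd3e, Cd3g, Cd4, Cd8a, Trbc2 and Lck were chosen after their values were seen. The same holds for Chil3, Ly6c2, Vcan, Trbc1, Art3, Rgs5, Flt1, Gfap and Lcn2. Coordinates are from GENCODE M21 (GRCm38, the assembly of mm10), and promoters from RefSeq (GRCm38.p6).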

Additional observations from a re-analysis of the deposited data

How the results depend on the processing

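The number of genes passing was 0 by edgeR under each scaling, filter, omitted library and the looser threshold, 0 by limma and 64 by DESeq2, and none of the 10 chemokine genes or 52 relatives passed in any of these. Of 131 alternative values for the 8 tested genes, 119 kept their direction and 12 turned it, and Cxcl12, Cxcl9, Ccr2 and Cx3cl1 kept it throughout. Ackr3 was at 0.10 with log2(TPM + 1), filtered or not, 0.12 with log2(TPM + 0.1) and 0.0016 with the length trend removed, and ranged from -0.37 to 0.16 over the omitted libraries. Over the same omissions Cxcr4 ranged from -0.21 to 0.43, Cxcl10 from -1.16 to 1.42, Ccl5 from -0.76 to 1.69, Ccr1 from -0.022 to 1.18, Cx3cr1 from -0.39 to 0.058 and Adam17 from -0.017 to 0.29. Cx3cr1 was at 0.043 with log2(TPM + 1), filtered or not, and 0.042 with log2(TPM + 0.1). The replicate numbers did not pair the libraries: same-numbered libraries had correlations of 0.06, -0.02 and -0.01 in their deviations from the group means. With the replicate number as a block, 0 genes passed and Cxcl10 was at -0.091. Without control 3 no control count of Cxcl9 is left, so its fitted 8.11 there is no measure of size, and on log2(TPM + 1) it was 0.55, since the pseudocount exceeds its level. Depth limits Ccl2, Cxcl1, Cxcr2 and Cxcr3, whose counts were too few to be tested. For the low genes, differences of a few counts were not detectable at this depth.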
